A study of Rattus norvegicus with 9 samples.

Results

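Guanylin (Guca2a) and uroguanylin (Guca2b) are peptides that the gut epithelium secretes into the lumen, where both bind guanylyl cyclase C (Gucy2c) on the apical membrane of epithelial cells. The receptor makes cyclic GMP, which activates the membrane-bound cyclic GMP-dependent protein kinase II (Prkg2). The kinase acts on the chloride and bicarbonate channel Cftr, so that fluid is secreted, and the same signal holds back sodium uptake. Carbonic anhydrase 2 in the cytosol (Car2) and carbonic anhydrase 4 on the cell surface (Car4) interconvert carbon dioxide and bicarbonate in these cells.

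These 7 genes were measured in the proximal colon of rats by all probe sets of the Affymetrix RG_U34A array that the platform annotation pairs with 1 symbol, that of a member. There were 9 such probe sets among 8799 (7 genes among 4737 with a probe set of their own symbol), with 1 each for Guca2a, Guca2b, Gucy2c, Prkg2 and Cftr and 2 each for Car2 and Car4. Male Sprague Dawley rats were raised on a purified diet whose protein was whey protein hydrolysate (WPH), soy protein isolate (SPI) or casein (CAS, the control), which was also their mothers' diet. All 3 groups were given azoxymethane (AOM), a colon carcinogen, at 15 mg/kg in 2 weekly injections from 90 days of age, and non-tumor tissue was taken 40 weeks later, so that no group without AOM was compared. Equal amounts of RNA from 7 rats were pooled for each diet, and 3 cRNA targets made in parallel from each pool were hybridized, 1 to an array. The spread between arrays of a diet is therefore technical, and every p-value compares pools, not rats.

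Values are signals on a linear scale for which the authors set the array average to 500. Between 58.7 and 60.3% of the probe sets of an array read 100 or more, and no 2 arrays held the same values. The tissue held markers of the epithelium and of the muscle wall. Epithelial markers were lower with WPH than with CAS in 24 of 24 cases and lower with SPI than with CAS in 15 of 24, and their summed signal was 28176 to 29006 with WPH, 64218 to 64946 with SPI and 89424 to 92135 with CAS. Summed signals of 10 smooth muscle markers ran the other way, at 227595 to 258267 with WPH, 170009 to 173456 with SPI and 119078 to 121408 with CAS. The marker lists were chosen with earlier results of these data known. Many of the epithelial markers are among the genes that the authors reported as lower with WPH on these same arrays. The epithelial counts and medians are therefore descriptions and not independent support. In such bulk tissue, fewer cells of a type and less RNA per cell cannot be told apart. The ratio of 3′ to 5′ signal of β-actin, a measure of RNA quality, was 2.53 to 3.50 with WPH, 2.14 to 2.36 with SPI and 1.83 to 1.88 with CAS, whereas that of GAPDH overlapped between the diets, at 1.57 to 1.70 with WPH, 1.48 to 1.65 with SPI and 1.34 to 1.71 with CAS. The part of these differences in the results that follow was not tested.

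Most of the group was lower with both test proteins than with casein. Guca2a, Gucy2c, Prkg2, Car2 and Car4 fell with WPH and with SPI, Guca2b fell with WPH, and Cftr passed the test in no comparison. In limma fits over 5606 probe sets, with an adjusted p under 0.05 as the threshold, 8 of 9 member probe sets (6 genes) were lower with WPH than with CAS, where 17.9% of all probe sets tested were lower and 20.9% higher. In the SPI comparison 7 of 9 (5 genes) were lower, against 10.2% of all lower and 12.0% higher. Between WPH and SPI, 4 of 9 (4 genes) were lower with WPH, against 10.1% of all lower and 9.83% higher, and no member was higher in any of the 3 comparisons, also at an unadjusted p under 0.05. With a 2-fold minimum added, the counts of lower members were 6, 5 and 2, against 8.47%, 3.37% and 4.48% of all. The 3 arrays of 1 diet lay wholly below the 3 of the other for 8, 7 and 5 member probe sets, against 22.4%, 19.1% and 14.9% of all. The median log2 change of the 9 probe sets was -1.70 for WPH against CAS, -1.30 for SPI against CAS and -0.19 for WPH against SPI, beside medians of 0.06, -0.01 and 0.08 over all probe sets tested. Both comparisons with CAS use the same 3 CAS arrays. The members were chosen with earlier results of these data known. From these same arrays the authors reported Guca2a, Gucy2c and Car4 as lower with WPH, and Guca2a and Car4 as lower with SPI. The counts and medians of the members are therefore descriptions and not independent support.

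**Figure D1:**
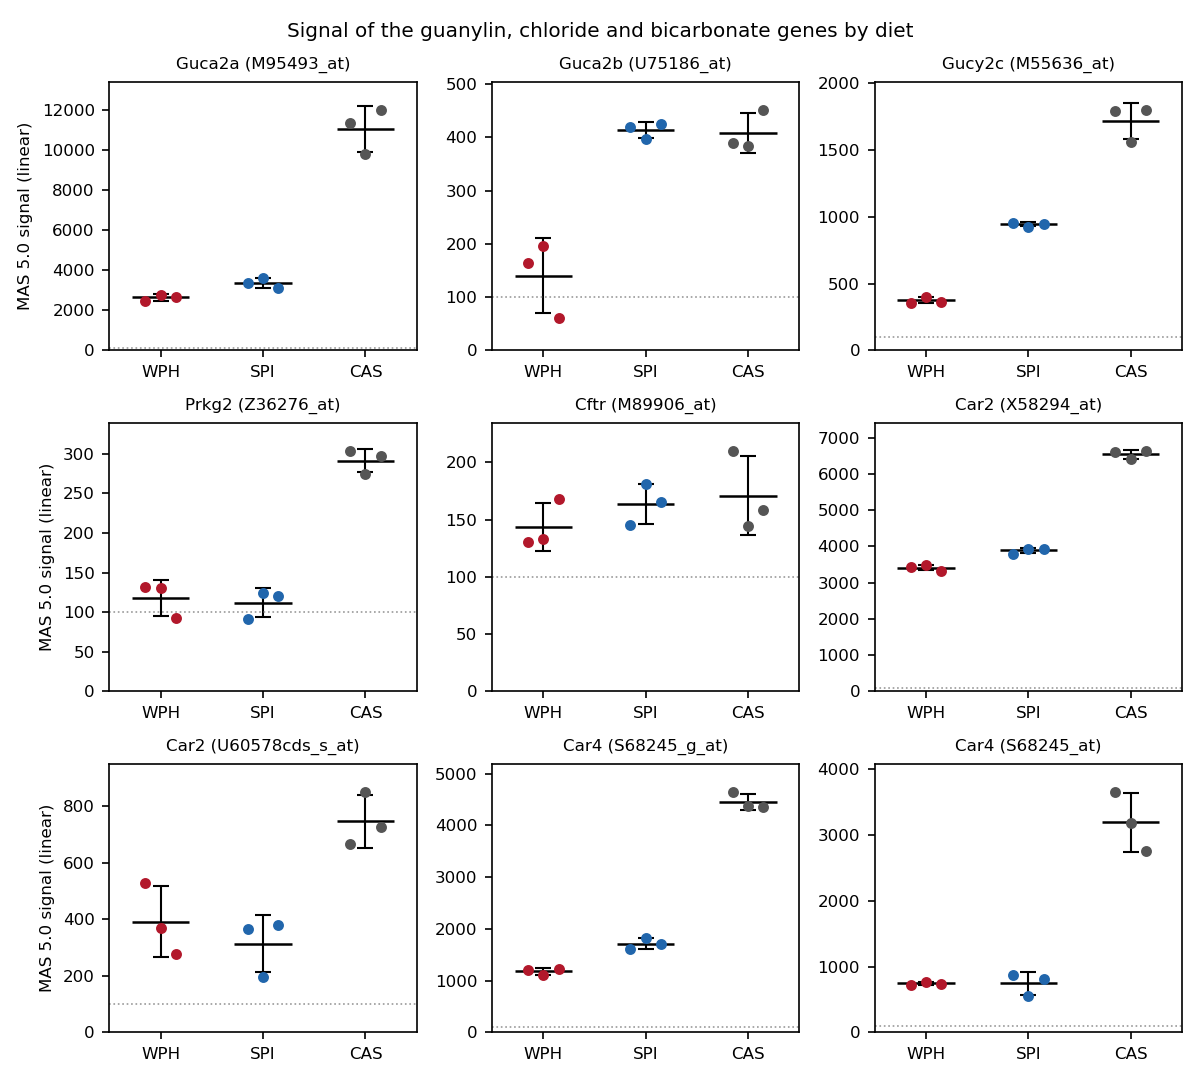
Signal (linear scale, from 0) of each member probe set on every array of the WPH, SPI and CAS diets. Points are arrays, the long line is the mean and the error bar the SD (n = 3 each), and the dotted line marks a signal of 100; only Guca2b, Prkg2 and Cftr come near that line, and CAS stands apart from both other diets for Guca2a, Gucy2c, Prkg2, Car2 and Car4.

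Of the ligands, guanylin was lower with both test proteins and uroguanylin passed the test with WPH alone. Guca2a (M95493_at), the main guanylate cyclase C ligand of the colon, gave signals of 2472, 2794 and 2669 on the WPH arrays, 3384, 3600 and 3133 on the SPI arrays, and 11375, 9793 and 11997 on the CAS arrays. All 6 arrays of the test proteins lay below all CAS arrays, and the 3 WPH arrays also lay below the 3 SPI arrays. Mean signals were 2645 ± 162 with WPH, 3372 ± 234 with SPI and 11055 ± 1136 with CAS (SD, n = 3 each), so that guanylin was lower than with CAS by 4.18-fold in the WPH pool and 3.28-fold in the SPI pool. The log2 changes were -2.06 (95% interval -2.27 to -1.85, limma adjusted p = 5.44e-08) and -1.71 (-1.92 to -1.50, adjusted p = 4.94e-07). WPH and SPI differed by only -0.35 (-0.56 to -0.14, adjusted p = 0.0266), a call that was lost when WPH replicate 1, WPH replicate 3, SPI replicate 1 or SPI replicate 2 was left out (adjusted p 0.0624 to 0.0817).

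Guca2b (U75186_at), a peptide better known from the small intestine, gave 164, 196 and 61.5 on the WPH arrays, 419, 397 and 426 on the SPI arrays and 390, 384 and 451 on the CAS arrays. SPI and CAS arrays overlapped, and all 3 WPH arrays lay below both, with WPH replicate 3 the lowest and under 100. Uroguanylin was thus 2.91-fold lower with WPH than with CAS (log2 change -1.70, -2.44 to -0.95, limma adjusted p = 0.00192) and 2.95-fold lower than with SPI (-1.72, -2.47 to -0.98, adjusted p = 0.00439). Without WPH replicate 3 these changes were -1.18 and -1.21. For SPI against CAS the change was 0.02 (-0.72 to 0.77, adjusted p = 0.974), an interval that leaves room for a change of either sign. The spread behind this interval is pooled over the 3 diets, so it includes that of the WPH arrays (61.5 to 196).

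The contrast between the ligands can be read within each array, as the log2 ratio of guanylin to uroguanylin signal. Only differences of this ratio between diets carry meaning, because the probe sets bind differently. The ratio was 3.91, 3.84 and 5.44 on the WPH arrays, 3.01, 3.18 and 2.88 on the SPI arrays and 4.87, 4.67 and 4.73 on the CAS arrays. It was lowest on the SPI arrays, which overlapped neither other diet. The value of 5.44 rests on the Guca2b signal of 61.5 of WPH replicate 3, and with signals under 100 set to 100, a check added after the data were seen, it was 4.74, within the range of the CAS arrays. SPI minus CAS was -1.73 on this scale (two-sided exact permutation p = 0.1, the smallest that 3 against 3 arrays allow). WPH minus CAS was -0.36 (exact permutation p = 0.4) and turns on that array, being -0.60 with the floor at 100 and -0.88, with no overlap, when WPH replicate 3 was left out (exact permutation p = 0.2, with 2 arrays against 3). WPH minus SPI was 1.37 (exact permutation p = 0.1), 1.14 with the floor and 0.85 without that array, and these groups did not overlap in any of the 3 settings.

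The ligand genes are neighbours on rat chromosome 5, with no annotated gene between them. The 250 bases before the start of each are shown, from RefSeq (GRCr8). They lie at chr5:138522196-138522445 on the plus strand for Guca2a and chr5:138534211-138534460 on the minus strand for Guca2b. Capitals mark matches, on either strand, to short motifs of factors of the gut epithelium, GATAA (GATA factors), TTTAT (CDX factors) and GTTAAT (an HNF1 half-site).
Guca2a: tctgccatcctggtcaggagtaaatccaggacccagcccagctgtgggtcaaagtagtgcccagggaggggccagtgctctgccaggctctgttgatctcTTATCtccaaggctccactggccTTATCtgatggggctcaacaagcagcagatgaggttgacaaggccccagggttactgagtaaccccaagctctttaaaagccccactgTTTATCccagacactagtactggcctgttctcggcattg
Guca2b: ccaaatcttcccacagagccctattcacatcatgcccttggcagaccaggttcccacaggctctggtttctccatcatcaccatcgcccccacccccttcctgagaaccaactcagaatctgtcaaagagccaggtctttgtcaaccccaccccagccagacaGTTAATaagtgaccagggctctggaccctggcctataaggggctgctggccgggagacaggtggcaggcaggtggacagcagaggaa

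The guanylin promoter held 3 matches to GATAA, all on the reverse strand (TTATC), and 1 to TTTAT, which overlaps the match nearest the start. The uroguanylin promoter held 1 match to GTTAAT and none to the other motifs. Among 33469 rat promoters of this length, 23.5% held GATAA, 39.3% TTTAT and 6.45% GTTAAT. Promoters were matched for 4 of the 7 genes, and of the others Cftr held 1 GATAA and 1 TTTAT and Car4 held no match. A match is a description of the letters and not a site of binding, and its part in the changes with diet was not tested.

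The receptor Gucy2c (M55636_at), which also binds the heat-stable enterotoxin of Escherichia coli, was graded across the diets. It gave 358, 402 and 364 on the WPH arrays, 955, 927 and 947 on the SPI arrays and 1790, 1559 and 1796 on the CAS arrays. No array of 1 diet reached the range of another. Mean signals were 375 ± 23.9 with WPH, 943 ± 14.6 with SPI and 1715 ± 135 with CAS (SD, n = 3 each). The receptor was 4.58-fold lower with WPH than with CAS (log2 change -2.19, -2.42 to -1.97, limma adjusted p = 4.82e-08), 1.82-fold lower with SPI than with CAS (-0.86, -1.08 to -0.64, adjusted p = 0.000135) and 2.52-fold lower with WPH than with SPI (-1.33, -1.56 to -1.11, adjusted p = 4.37e-06). In the SPI comparison, then, guanylin changed by -1.71, its receptor by -0.86 and uroguanylin by 0.02 on the log2 scale, and the difference between guanylin and its receptor was not tested.

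The kinase Prkg2 (Z36276_at) gave 132, 131 and 92.0 on the WPH arrays, 91.1, 125 and 120 on the SPI arrays and 303, 275 and 297 on the CAS arrays. WPH and SPI overlapped and lay near 100, where signals are dim, while all CAS arrays were higher. Against CAS it was 2.47-fold lower with WPH (log2 change -1.32, -1.78 to -0.86, limma adjusted p = 0.000407) and 2.60-fold lower with SPI (-1.39, -1.85 to -0.93, adjusted p = 0.000722). Between WPH and SPI the change was 0.07 (-0.39 to 0.53, adjusted p = 0.844).

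The channel Cftr (M89906_at), the effector of the kinase, gave 130, 133 and 168 on the WPH arrays, 146, 181 and 165 on the SPI arrays and 210, 144 and 158 on the CAS arrays. The 3 diets overlapped. Its log2 change was -0.24 for WPH against CAS (-0.69 to 0.21, limma adjusted p = 0.39), -0.05 for SPI against CAS (-0.50 to 0.40, adjusted p = 0.905) and -0.19 for WPH against SPI (-0.64 to 0.26, adjusted p = 0.563). The lower ends of the intervals against CAS, -0.69 for WPH and -0.50 for SPI, lie above the changes of Gucy2c in the same comparisons. The probe set was dim, with mean signals of 144 ± 21.2 with WPH, 164 ± 17.7 with SPI and 171 ± 34.4 with CAS (SD, n = 3 each).

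**Figure D2:**
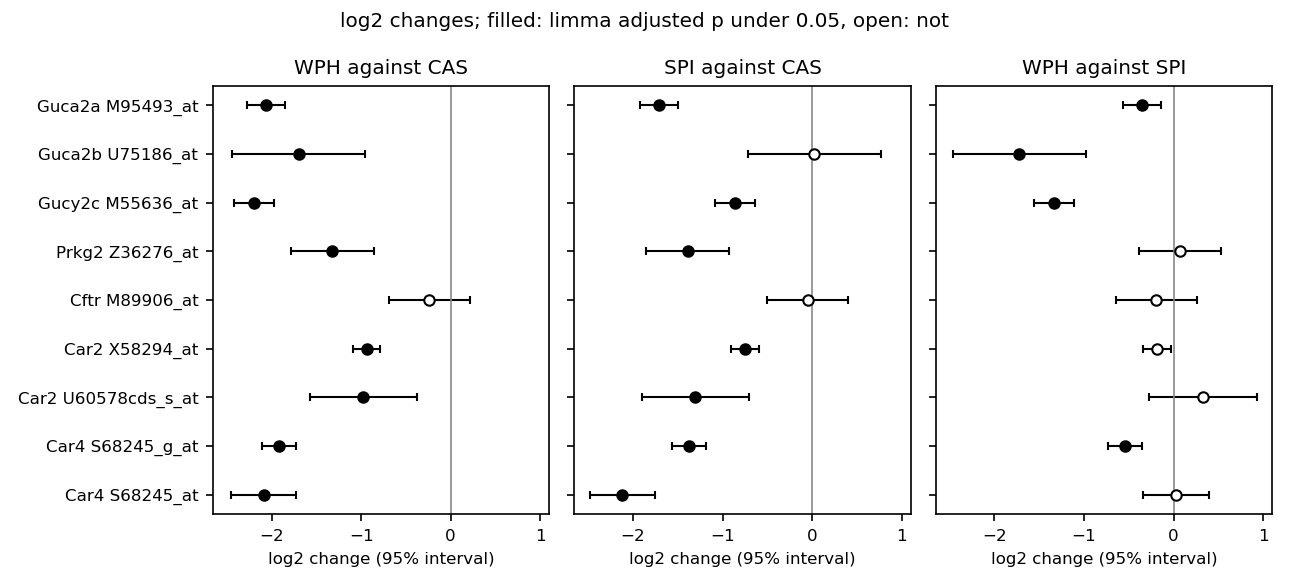
log2 change of each member probe set for WPH against CAS, SPI against CAS and WPH against SPI, with its 95% interval from limma; filled points have an adjusted p under 0.05 and open points do not. All filled points lie below 0, Cftr is open in the 3 panels, and Guca2b and Gucy2c lie farthest from 0 in the panel of WPH against SPI.

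Both carbonic anhydrases fell with both test proteins. Car2 was read by X58294_at at 3427, 3491 and 3335 on the WPH arrays, 3803, 3931 and 3933 on the SPI arrays and 6596, 6405 and 6624 on the CAS arrays. The 3 diets did not overlap, with WPH just below SPI and CAS well above both. Cytosolic carbonic anhydrase was 1.91-fold lower with WPH (log2 change -0.94, -1.09 to -0.78, limma adjusted p = 1.34e-06) and 1.68-fold lower with SPI than with CAS (-0.75, -0.90 to -0.60, adjusted p = 2.22e-05), and WPH minus SPI was -0.19 (-0.34 to -0.03, adjusted p = 0.0855).

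The dimmer Car2 probe set, U60578cds_s_at, gave 527, 370 and 277 with WPH, 364, 197 and 381 with SPI and 665, 849 and 726 with CAS. Both test proteins lay below CAS and overlapped each other. Its log2 changes were -0.97 with WPH (-1.58 to -0.37, limma adjusted p = 0.0146) and -1.30 with SPI (-1.90 to -0.70, adjusted p = 0.0055) against CAS. The WPH call was lost without WPH replicate 3 (adjusted p = 0.059) or CAS replicate 2 (adjusted p = 0.0535).

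Car4, the anhydrase anchored on the cell surface, was read by a pair of probe sets made from the same sequence, so that they are not independent. S68245_g_at gave 1210, 1109 and 1218 with WPH, 1612, 1834 and 1707 with SPI and 4641, 4372 and 4355 with CAS. No diets overlapped, and the order was WPH, SPI, CAS from low to high. Car4 was 3.78-fold lower with WPH (log2 change -1.92, -2.11 to -1.73, limma adjusted p = 4.39e-08) and 2.59-fold lower with SPI than with CAS (-1.38, -1.57 to -1.19, adjusted p = 1.06e-06), and it was lower with WPH than with SPI (-0.54, -0.73 to -0.35, adjusted p = 0.00121).

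S68245_at gave 724, 767 and 741 with WPH, 872, 547 and 814 with SPI and 3643, 3171 and 2748 with CAS. Here WPH lay within the range of SPI, and both lay below CAS. It was 4.28-fold lower with each test protein than with CAS, with log2 changes of -2.09 (-2.46 to -1.72, limma adjusted p = 2.36e-06) for WPH and -2.12 (-2.48 to -1.75, adjusted p = 6.58e-06) for SPI. WPH minus SPI was 0.03 (-0.34 to 0.39, adjusted p = 0.925), so that the probe sets of Car4 do not give the same order of WPH and SPI.

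By the hybridization date and time that the instrument recorded, the arrays fell into 3 groups, here called wash rounds. These could be compared for WPH in part. The labels do not name these rounds, so that wash round is only a name used here. The round that held CAS arrays had 1 WPH array (replicate 2) beside the 3 CAS arrays, so that it gives values with no spread of WPH, and no test is read from it. There the log2 changes were -2.09 for Gucy2c, -1.98 for Guca2a and -1.06 for Guca2b. With the round as a block Guca2b (-1.06, limma adjusted p = 0.113) and Car2 by U60578cds_s_at (adjusted p = 0.101) lost that call. In the round of 2 WPH and 2 SPI arrays, Gucy2c (-1.38, adjusted p = 0.00446) and Guca2b (-2.02, adjusted p = 0.0496) were lower with WPH, whereas Guca2a (adjusted p = 0.0987) and Car4 by S68245_g_at (adjusted p = 0.098) missed the threshold. No round held SPI and CAS arrays together. With the round as a block, which then links SPI to CAS through WPH, 4 of the 7 SPI calls were made, and Gucy2c (-0.71, adjusted p = 0.0916), Prkg2 (-1.20, adjusted p = 0.146) and Car2 by U60578cds_s_at (-1.52, adjusted p = 0.155) were not. In that fit the change of Guca2b for SPI against CAS moved from 0.02 to 0.96 (limma adjusted p = 0.425).

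Each member was then placed among the 24 epithelial markers, a list that was not chosen independently of these arrays. Gucy2c lay close to their median in every comparison, with differences from it of -0.09 for WPH against CAS, -0.08 for SPI against CAS and -0.02 for WPH against SPI. Their medians were -2.11, -0.78 and -1.32. Guca2a, by contrast, was near the median for WPH against CAS (difference 0.05, with 13 of 24 markers lower) but lay below it for SPI against CAS (difference -0.93), where 4 of 24 markers had a lower change.

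Car4 followed the same course as guanylin, with 14 and 12 of 24 markers lower by its 2 probe sets for WPH against CAS, and 5 and 1 of 24 for SPI against CAS. For Prkg2 in the same comparisons, 21 and 5 of 24 markers had a lower change. Car2 fell less than most markers for WPH against CAS, where 23 and 22 of 24 were lower by its 2 probe sets. For SPI against CAS 12 and 5 of 24 were lower than Car2. Cftr had 24 of 24 markers lower for WPH against CAS and 22 of 24 for SPI against CAS. Between WPH and SPI, where the epithelial median was -1.32, 23 or 24 of 24 markers had a lower change than Guca2a, Prkg2, Cftr, Car2 and Car4. Guca2b stood apart in the opposite way, since 23 of 24 markers had a lower change for SPI against CAS and 4 of 24 for WPH against SPI. These positions are descriptions and were not tested.

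**Figure D3:**
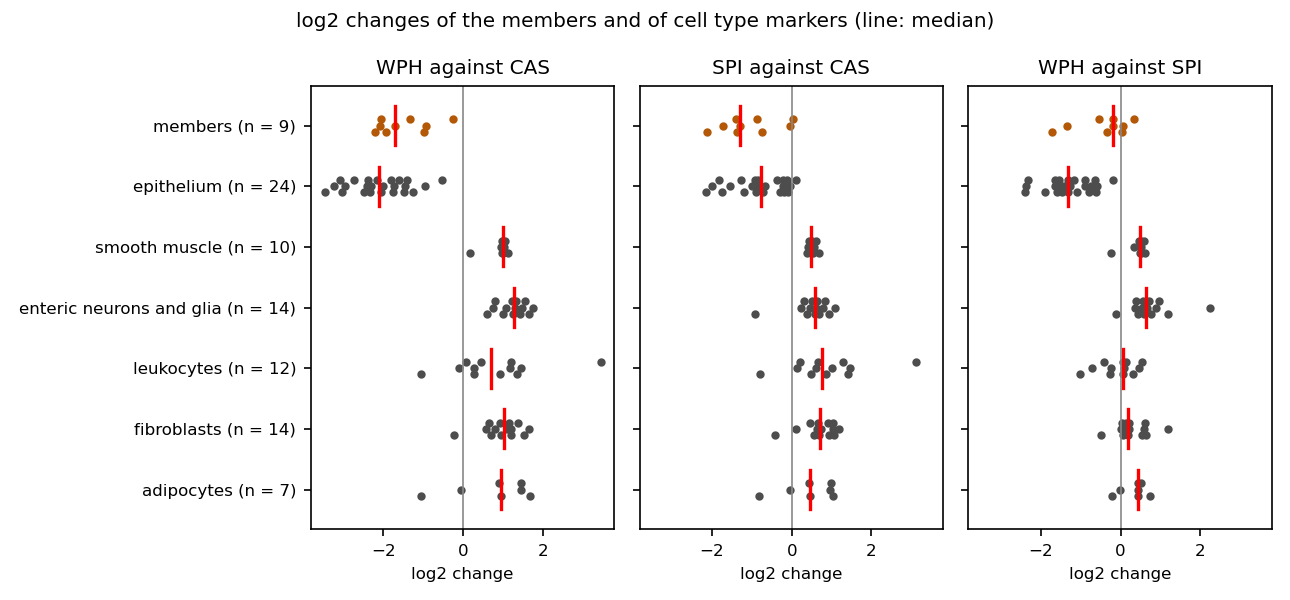
log2 changes of the 9 member probe sets and of marker genes of 6 cell types for WPH against CAS, SPI against CAS and WPH against SPI; points are probe sets or genes and the line is the median of the row. Members and epithelial markers lie mostly below 0 in both comparisons with CAS, and the medians of the other cell types lie above 0; between WPH and SPI the member median is -0.19 and the epithelial median -1.32.

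Most markers of other cells moved against the members. Of 10 smooth muscle markers 9 were higher with WPH and 9 with SPI than with CAS, with median log2 changes of 1.01 and 0.50. Of 14 markers of enteric neurons and glia, 14 and 9 were higher (medians 1.29 and 0.60), and of 14 fibroblast markers 13 and 11 (medians 1.03 and 0.71). Of 12 leukocyte markers 8 and 6 were higher (medians 0.70 and 0.77), and of 7 adipocyte markers 5 and 5 (medians 0.94 and 0.47). In both comparisons 1 leukocyte marker (Cd14) and 1 adipocyte marker (Pparg) were lower, as was 1 fibroblast marker (Sparc) with SPI. Over all probe sets tested the shares higher were 20.9% with WPH and 12.0% with SPI, and the shares lower 17.9% and 10.2%. Among epithelial markers, Cdx1, a transcription factor of the intestinal epithelium, was under 100 on all 3 WPH arrays, while Lgals4, an epithelial lectin, averaged 7384 with WPH, 11434 with SPI and 10676 with CAS. The part of the tissue's makeup in the lower signals of the members was not tested.

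Over the 9 arrays, Guca2a, Car2 and Car4, each read by its brightest probe set, had profiles of nearly the same shape. Pearson's r was 0.995 between Guca2a and Car2, 0.985 between Guca2a and Car4 and 0.992 between Car2 and Car4. The dimmer probe sets of Car2 and Car4 were not used here. Pearson's r does not compare sizes, and for WPH against CAS the log2 change was -2.06 for Guca2a and -0.94 for Car2. Gucy2c correlated less with guanylin (r = 0.882) and with uroguanylin (r = 0.820). Guanylin and uroguanylin had r = 0.548, and r between Cftr and any other member was at most 0.503. All of these describe 9 arrays in 3 groups of 1 pool each and are mostly set by the diet means. Among 3384 genes, those most like Guca2a were Emb (r = 0.992), Tmigd1 (0.991) and Slc16a1 (0.990), and Tmigd1 (0.996) and Slc16a1 (0.994) also led for Car2, followed by Mcpt1 (0.991).

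The 3 genes nearest to Car4 were Aqp3 (r = 0.996), Sult1c2a (0.995) and Slc25a10 (0.994). For Gucy2c they were Zg16 (0.998), a lectin of mucus granules and 1 of the epithelial markers, Cyp2j3 (0.993) and Tmem171 (0.992). Zg16 averaged 449 with WPH, 1077 with SPI and 1990 with CAS, steps much like those of the receptor. Guca2b was matched by Ptbp1 (0.970), Gmfb (0.965) and Anxa4 (0.963), of which Anxa4 averaged 342 with WPH, 722 with SPI and 707 with CAS. Prkg2 was matched by Mrps6 and Cth (0.976 each) and Arpc5l (0.961). For Cftr the highest r was 0.873, with Unc50, followed by Inf2 (0.872) and Chrng (0.868).

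The other genes of cyclic GMP signalling passed the test about as often as all probe sets did. Of 8 tested without the members, 2 were higher and 1 lower with WPH (20.9% and 17.9% of all), and 1 higher and 1 lower with SPI than with CAS (12.0% and 10.2% of all). The lower one in both was Pdzk1ip1, a small membrane protein that binds PDZ proteins, which was at least 3.56-fold lower with each diet, since it lay under 100 on all their arrays. A list of the other guanylate cyclases, the natriuretic peptides with their receptors and the nitric oxide synthases had 8 genes tested. Of these, 4 were higher with WPH than with CAS (Npr1, Npr2, Gucy1a1 and Gucy1b1), where 20.9% of all were. With SPI 2 of them were also higher (Npr1 and Gucy1a1), where 12.0% of all were. Gucy2e, Nppc, Nos2 and Nos3 did not pass the test. Npr1, the receptor of atrial natriuretic peptide, averaged 1091 with WPH, 549 with SPI and 343 with CAS (log2 changes against CAS 1.67 and 0.68, limma adjusted p = 7.45e-07 and 0.00129). Gucy1a1, a subunit of the nitric oxide receptor, rose by 1.27 with WPH and 0.58 with SPI (adjusted p = 2.63e-06 and 0.00192).

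Beside Cftr, 13 further genes of chloride and bicarbonate transport were tested, and 6 were lower and 3 higher with WPH, and 2 lower and 0 higher with SPI than with CAS. Of all probe sets tested, 17.9% were lower and 20.9% higher with WPH, and 10.2% lower and 12.0% higher with SPI. Of 42 genes listed, Cftr included, 21 had a probe set of their own symbol. The chloride channel Clcn2 was listed but was not among these. The authors reported this channel as lower with WPH and with SPI on these same arrays, so the counts leave it out. Among the genes tested, the largest fall with WPH was that of Clca4, a protein named as a calcium-activated chloride channel regulator. It averaged 997 with WPH, 8578 with SPI and 6179 with CAS. Its log2 change was -2.65 for WPH (limma adjusted p = 1.51e-06) and 0.49 for SPI against CAS (adjusted p = 0.109), and -3.14 for WPH against SPI (adjusted p = 1.01e-06). Slc12a2, the basolateral cotransporter that loads cells with chloride, was like Guca2b low with WPH alone, at 793 with WPH, 1847 with SPI and 1856 with CAS (log2 changes against CAS -1.22, adjusted p = 5.47e-05, and 0.00, adjusted p = 0.994). The anion exchanger Slc4a2 fell by 1.38 with WPH and 0.60 with SPI (adjusted p = 2.75e-06 and 0.00282). The bicarbonate cotransporter Slc4a4 was at least 1.92-fold lower with WPH than with CAS (adjusted p = 0.00238), while for SPI its change was -0.67 (adjusted p = 0.383). The 3 genes higher with WPH were Slc4a7 (log2 change 0.85, limma adjusted p = 0.00428), Slc12a4 (0.64, adjusted p = 0.00575) and Slc4a3 (0.51, adjusted p = 0.0156). Slc4a7 averaged 3975 with WPH, 2591 with SPI and 2211 with CAS.

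Sodium uptake is what cyclic GMP restrains, and 7 of 11 genes of sodium absorption and proton exchange were lower and 1 higher in each comparison with CAS. The shares of all probe sets tested were 17.9% lower and 20.9% higher with WPH, and 10.2% lower and 12.0% higher with SPI. The higher gene was Atp1b3 in both (log2 changes 0.95 with WPH and 0.56 with SPI, limma adjusted p = 3.03e-06 and 0.000451). The exchanger Slc9a3 averaged 206 with WPH, 966 with SPI and 1515 with CAS (log2 changes -2.88 and -0.66, limma adjusted p = 4.53e-08 and 0.00425). The colonic proton pump Atp12a was at least 10.2-fold lower with WPH than with CAS, and the sodium channel subunit Scnn1a changed by -1.66 with WPH and -1.41 with SPI (adjusted p = 1.18e-06 and 1.28e-05). Both Atp12a (-1.33, adjusted p = 0.000414) and Slc9a2 (at least 1.96-fold lower with WPH and with SPI) fell with SPI as well. Of the other carbonic anhydrases, Car3 and Car5a were tested, and neither passed the threshold in any of the 3 comparisons.

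**Figure D4:**
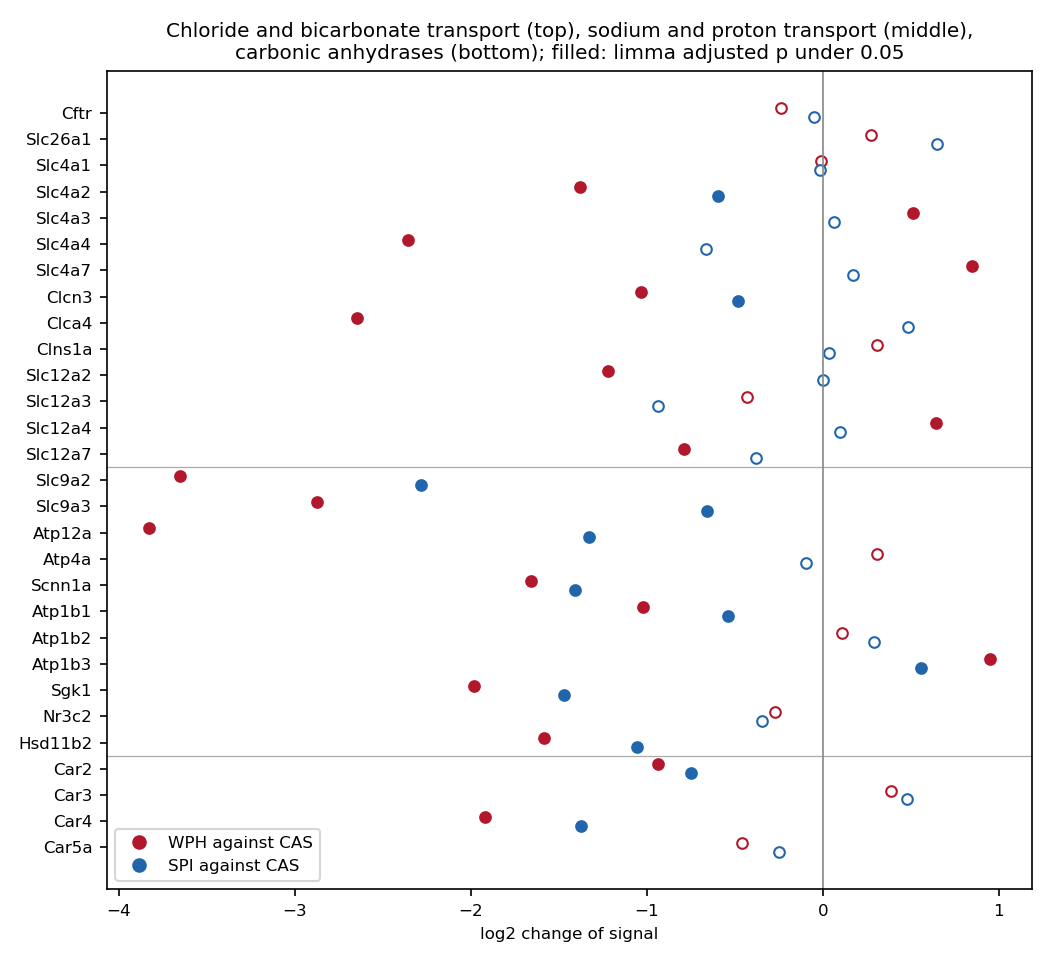
log2 change of every tested gene of chloride and bicarbonate transport, of sodium and proton transport and of the carbonic anhydrases, for WPH against CAS and SPI against CAS; filled points have a limma adjusted p under 0.05. Clca4 and Slc12a2 are filled for WPH and open for SPI, whereas Car2, Car4, Scnn1a, Sgk1 and Hsd11b2 are filled for both.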

How the data were processed

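RNA of the proximal colon was hybridized to 9 Affymetrix RG_U34A arrays, 3 per diet. The authors computed the deposited intensity values (signals, linear scale) with MAS 5.0 and brought every array to a target average of 500; detection calls were not used here, and the genome build is not given in the sources used here. The number of arrays limits the precision. From these values, signals under 0.1 were set to 0.1 and log2 was taken with no further normalization. After 59 controls were left out, 5606 of 8740 probe sets with a mean of at least 100 in at least 1 diet were fitted with limma 3.58.1 (R 4.3.3) over all 9 arrays, with a variance trend and Benjamini-Hochberg adjustment. A call is an adjusted p under 0.05. The fit was tested on simulated data. Folds are ratios of mean signals. A diet with no array at 100 or above was given 100 for each of its signals, and the fold against it is a lower bound.

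Of the probe sets, 7018 carried 1 symbol in the platform annotation, 308 carried several and 1473 had no symbol. Each listed gene was read by its brightest probe set. The members and the gene lists were chosen with earlier results of these data known. All member probe sets are named; of each list, up to 4 of the largest called changes in each direction per comparison, and for each member the 3 genes with the highest Pearson's r. Lgals4, Car3, Car5a, Gucy2e, Nppc, Nos2 and Nos3 stand outside this rule and were named after their values were seen. The wash rounds were inferred from the hybridization date and time in the instrument's settings files, with a new round after each long gap between the sorted times. Other steps ran in Python 3.11.15 (matplotlib 3.10.9, scipy 1.17.1, pandas 2.3.3, numpy 2.4.6). Each choice was then varied: low signals raised to 50, 32 added before the log, a minimum of 200 or no filter, quantile or median scaling, eBayes without the trend, fits of 2 diets, the methods' t-test, 2-fold limits, blocks for wash round or for replicate number, and each array omitted.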

Additional observations from a re-analysis of the deposited data

How the results depend on the processing

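No member that passed the threshold changed sign under any alternative. The 8 member probe sets lower for WPH against CAS were 5 by the methods' t-test after Benjamini-Hochberg and 5 with a 2-fold change in 9 of 9 array pairs, and 7 to 8 when an array was left out. The 7 lower for SPI against CAS were 3 by that t-test, 4 with the 9 pairs and 4 with wash round as a block, and 7 without any 1 array. The 4 lower for WPH against SPI were 1 by that t-test, 2 with the 2-fold minimum, 2 with the 9 pairs, 2 within a wash round, and 3 to 4 when an array was left out. The call of Guca2a there was also lost with median centring (limma adjusted p = 0.056), without the variance trend (0.0728) and when wash round was a block (0.0557). The 2-fold rules are stricter by construction; for the other losses the cause was not tested.

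Over all probe sets tested, limma called 1174 higher and 1001 lower for WPH against CAS, 673 and 570 for SPI against CAS, and 551 and 565 for WPH against SPI. The t-test after adjustment gave 478 and 504, 113 and 138, and 46 and 91. The 2-fold minimum gave 311 and 475, 135 and 189, and 57 and 251, and 2-fold in all 9 pairs gave 112 and 296, 73 and 111, and 15 and 141. With wash round as a block 731 were higher and 743 lower for WPH against CAS, 100 higher and 152 lower for SPI against CAS, and 208 higher and 352 lower for WPH against SPI. Within the wash round of 2 WPH and 2 SPI arrays, 94 were higher and 221 lower for WPH against SPI. For WPH against SPI, 343 were higher without WPH replicate 2 and 360 without SPI replicate 1.

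Same-numbered arrays of different diets did not deviate together. The correlation of their deviations was -0.275 to 0.237 and over 0.1 in 1 of 9 pairs, and 1 of 9 arrays correlated best with its own number. With the replicate number as a block, 8, 7 and 3 member probe sets were lower in the 3 comparisons, and the one lost was Guca2a for WPH against SPI (limma adjusted p = 0.0652).

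With the mean over probe sets in place of the brightest one, the median of the cyclic GMP list for WPH against SPI was -0.01 in place of 0.12, and that of fibroblast markers for WPH against CAS was 0.77 in place of 1.03. Signals near 100, those of Prkg2, Cftr and Guca2b with WPH, limit what can be read from these members.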

Other observations

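Cyclic AMP is the other signal that opens Cftr. A list of genes for secretion driven by that signal, which also holds potassium channels, had 17 genes tested. Of these, 7 were higher and 3 lower with WPH, and 4 higher and 3 lower with SPI than with CAS. Of all probe sets tested, 20.9% were higher and 17.9% lower with WPH, and 12.0% higher and 10.2% lower with SPI. The potassium channel Kcnk1 averaged 112 with WPH, 201 with SPI and 542 with CAS (log2 changes against CAS -2.28 and -1.43, limma adjusted p = 4.97e-07 and 4.89e-05). The adenosine receptor Adora2b changed by -1.46 with WPH and -1.13 with SPI (adjusted p = 7.87e-05 and 0.00125). Vipr2, a receptor of vasoactive intestinal peptide found on smooth muscle, was at least 2.25-fold higher with WPH and at least 1.18-fold higher with SPI than with CAS, where it lay under 100 (adjusted p = 0.000141 and 0.0252). Prkar1b, a regulatory subunit of the cyclic AMP-dependent kinase, rose by 1.16 with WPH and 0.38 with SPI (adjusted p = 8.4e-06 and 0.0297).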
